A study of Mus musculus with 7 samples.

Results

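Potassium and HCN channel genes were examined in the RNA of mouse brain tumors. They were chosen by name, as all genes of the expression table whose symbol starts with Kcn or Hcn, and there were 99 of them among 19257 genes. Of the 99, 79 code for subunits that line or join the pore of a channel, 15 code for auxiliary proteins, and 5 are other transcripts that share the prefix (Kcnrg, which regulates channel assembly, and the non-coding Kcnq1ot1, Kcnd3os, Kcnmb4os1 and Kcnmb4os2). The rule used the name alone. The channel genes and the gene lists set beside them were, however, chosen with earlier results of these data known.

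Tumors of the groups 3xCR and GPC6 were compared. In the 3xCR group, progenitor cells lining the ventricles of CD-1 or C57BL/6 embryos were electroporated in utero with a construct that carries Cas9 and guides that target tumor suppressors, including Nf1 and Trp53. A piggyBac transposon, which inserts into the genome, marked the electroporated cells with GFP. The GPC6 group received the same construct, and its transposon carried GPC6 for overexpression as well, a glypican secreted by glia that promotes the formation of excitatory synapses. Tumor tissue was dissected under fluorescence when the mice reached the humane endpoint, so that the ages were not matched by design, and the age of the mouse behind each library is not given in the sources used here. Bulk RNA-Seq gave 3 libraries of the 3xCR group (replicates 2, 3 and 4) and 4 of the GPC6 group (replicates 1 to 4). In the sentences below, values are normalized counts per library, listed in this order. A bulk library holds the RNA of every cell in the tissue taken, so fewer cells of a type and less RNA per cell cannot be told apart.

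Potassium channels let potassium leave the cell and so set the resting potential, shape the action potential and limit how often a neuron fires. Voltage-gated channels (Kcna, Kcnb, Kcnc, Kcnd, Kcnh and Kcnq) open on depolarization, inward rectifiers (Kcnj) and leak channels (Kcnk) hold the cell near rest, and the Kcnm, Kcnn and Kcnt channels open on internal calcium or sodium. HCN channels open on hyperpolarization and carry a mixed sodium and potassium current that paces rhythmic firing. Astrocytes take up the potassium that active neurons release, largely through the inward rectifier Kir4.1, the product of Kcnj10, and mutations of several neuronal members, such as Kcna1 and Kcnt1, cause epilepsy.

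What unites the pore subunits is the selectivity filter, a stretch of 5 residues in the pore loop. In potassium channels, potassium ions line up at this stretch. The codons of the filter were read from the GRCm38 genome with the GENCODE annotation for 4 of the genes on which the results below turn, a Shaker-type, an ether-a-go-go, an inward rectifier and a leak channel, so that the shared stretch and its variants can be seen. Capitals mark the 15 bases that matched the searched motif, and the 15 bases around them are in lower case.
Kcna1: atgaccACTGTGGGATACGGTgacatgtac
Kcnh3: ctcaccAGTGTGGGCTTCGGCaacgtgtcc
Kcnj10: cagaccACCATCGGCTATGGCttccgctac
Kcnk6: gtcaccACCGTGGGCTATGGCtacacgacc
The windows lie in coding exons, at chr6:126642219-126642248 on the minus strand for Kcna1, chr15:99232923-99232952 on the plus strand for Kcnh3 and chr1:172369296-172369325 on the plus strand for Kcnj10. The Kcnk6 window is split over 2 exons on the minus strand, between chr7:29225851 and chr7:29232174. The motif, searched in the reading frame of the longest coding transcript, was a codon for threonine (or one starting with AG or TC, as in serine, for the Kcnh form, and with TG, as in cysteine, for the HCN form), a codon with T as its middle base, glycine, a codon starting with T, and glycine. It was widened after the first matches had been seen, and a match describes the letters alone. At least 1 match was present in 73 of the 79 pore subunits (92.4%), against 281 of 21562 coding genes (1.3%). Leak channel proteins carry 2 pore loops, and 10 of the 13 Kcnk genes had 2 matches. Kcnk6 was not among these 10, and the stretch printed above, from codon 106 of 313, was its only match.

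The libraries held 7197692 to 18879762 reads on genes, so that a count of 0 allows up to 1.64 to 4.64 normalized counts depending on the library (counting error only). Of the 99 genes, 82 had a mean of at least 10 normalized counts and were tested, and the other 17 never exceeded 31.6 in a library. Gpc6 itself was at 217, 226 and 126 in the 3xCR libraries and at 675, 263, 3434 and 5084 in the GPC6 libraries, so that the library labelled GPC6 replicate 2 lay close to the 3xCR level. The library of GPC6 replicate 1 had the lowest proliferation marker Mki67 (130 against 949.9 to 1876 in the others) and the hypothalamic peptide Avp at 541 against at most 7.10 elsewhere. Counts and medians over the channel genes are given below also without these libraries, as are the log2 fold changes of some of the genes that moved without them.

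Most channel genes had higher values in the GPC6 group, and no single one passed the test. The log2 fold change (GPC6 minus 3xCR, on log2(normalized count + 1)) was above 0 for 68 of the 82 tested genes (82.9%, where 48.3% of all 14782 tested genes were above 0). It was above 1 for 43 of them (52.4%, where 8.15% of all genes were). The median was 1.07 over the channel genes and -0.019 over all tested genes. With limma and Benjamini-Hochberg adjustment over all tested genes, 0 of the 82 had an adjusted p under 0.05, as had 0% of all genes, and the smallest adjusted p among them was 0.730. At an unadjusted limma p under 0.05 there were 9 channel genes with higher values in the GPC6 group (11%, where 2.74% of all genes were called) and 1 with lower values (where 1.92% were), 10 in all (4.66% of all genes). Among the 9 were Kcnd3, Kcnh1, Kcnj4, Kcnj12, Kcnj16, Kcns2 and Kcnv1, and the 1 was Kcnk6, of which Kcnh1, Kcnj12 and Kcns2 were named after their values were seen. On the reads recovered from the values, edgeR called 0 genes of the table at an adjusted p under 0.05 and 15 channel genes at an unadjusted one (6.7% of all genes). DESeq2 called 0.0211% of all genes and 0 of the 99 channel genes at an adjusted p under 0.05, and 38 of the 99 at an unadjusted one (9.77% of all genes).

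The groups of libraries overlapped for nearly all of them. A gene with no overlap has all GPC6 libraries on one side of all 3xCR libraries, and 0 channel genes lay higher in this sense (2.8% of all genes did) and 1, Kcnk6, lay lower (3.52% of all genes did, and 6.32% did in either direction).

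**Figure D1:**
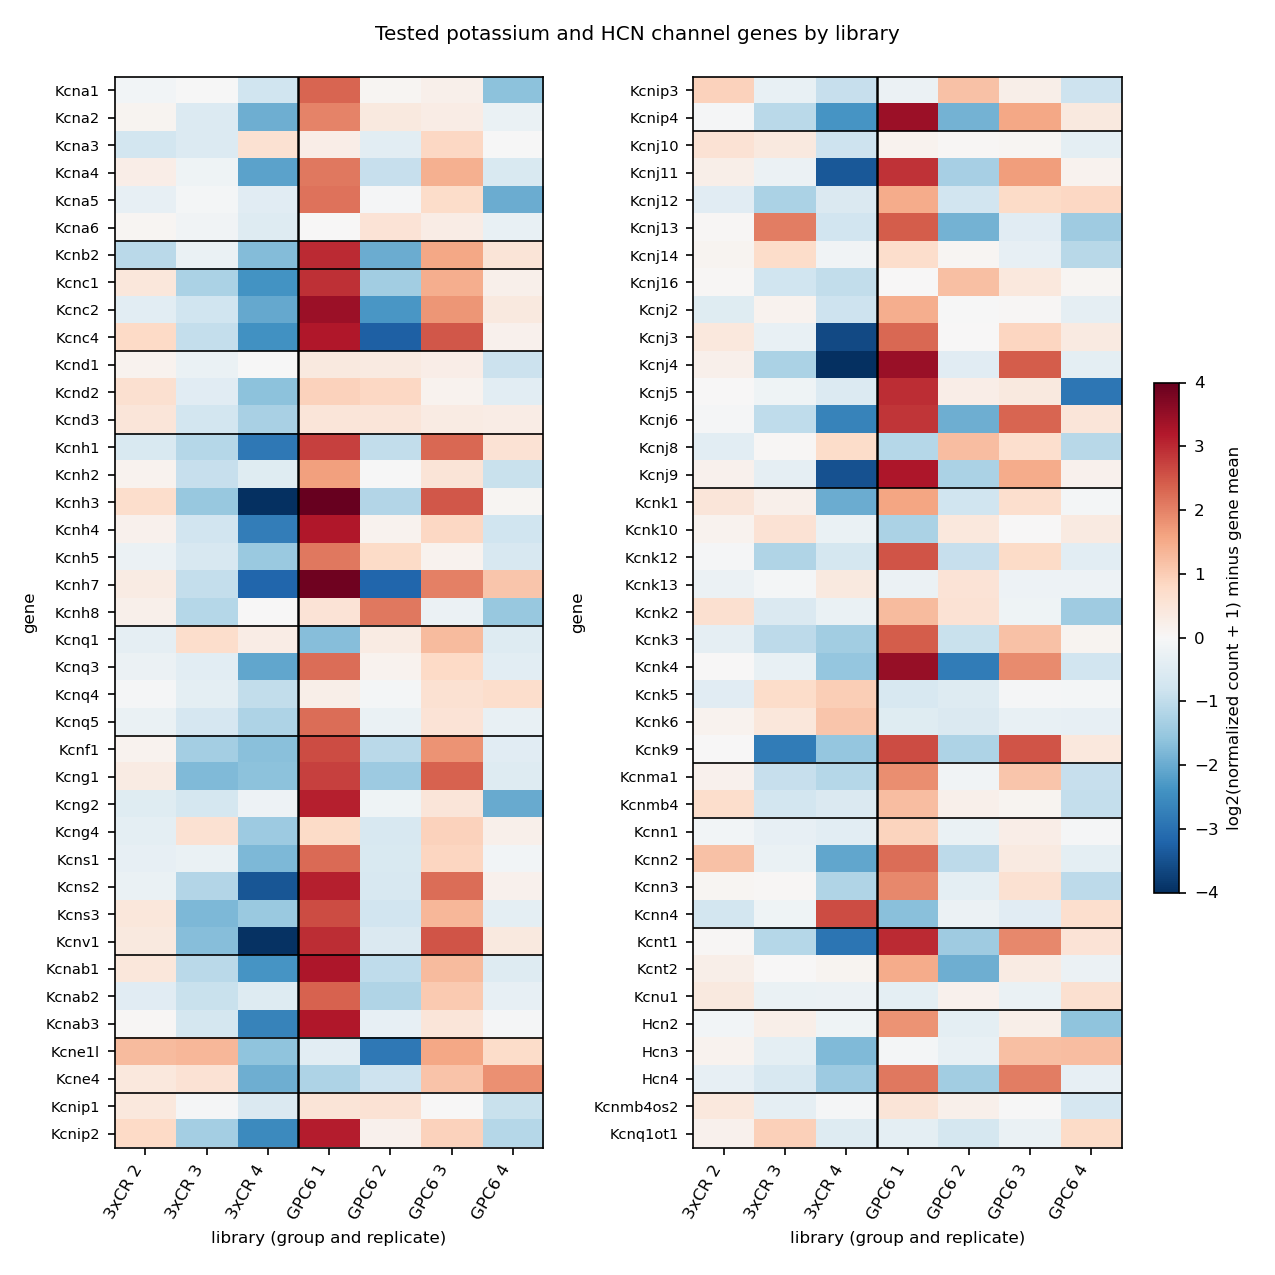
Heat map of 78 of the 82 tested channel genes, in rows grouped by subfamily, over the 7 libraries, in columns. Color gives log2(normalized count + 1) minus the mean of the gene. Over all 82, GPC6 replicate 1 was the highest library for 59 genes and 3xCR replicate 4 the lowest for 46.

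The highest and lowest values were concentrated in a few libraries. GPC6 replicate 1 was the highest of the 7 libraries for 59 of the 82 channel genes (72.0%, where it was highest for 31.3% of all genes), and 3xCR replicate 4 was the lowest for 46 (56.1%, where it was lowest for 22.2% of all genes). GPC6 replicates 1 and 3 were the 2 highest libraries for 48 genes (58.5%, against 16.9% of all genes). GPC6 replicate 2 lay below 3xCR replicate 2 for 60 genes (73.2%, against 50% of all genes). The summed normalized count of the tested channel genes was 23022, 16368 and 9612 in the 3xCR libraries and 53153, 19818, 28009 and 14559 in the GPC6 libraries. The groups overlapped in this sum, since GPC6 replicates 2 and 4 lay below 3xCR replicate 2.

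A score per library, the mean over genes of log2 values centred per gene, was compared between the channel genes and 17 pan-neuronal markers such as Snap25, a protein of synaptic vesicle fusion, and Rbfox3, the antigen NeuN. The channel score was 0.077, -0.48 and -1.37 in the 3xCR libraries and 1.67, -0.53, 0.89 and -0.26 in the GPC6 libraries. The pan-neuronal score was -0.20, -0.70 and -1.45 in the 3xCR libraries and 1.99, -0.87, 1.26 and -0.030 in the GPC6 libraries. Both scores placed GPC6 replicates 1 and 3 on top and 3xCR replicate 4 at the bottom. All 17 pan-neuronal markers had log2 fold changes above 0 (median 1.30), as had 8 of 8 excitatory and 8 of 8 inhibitory neuron markers. The pan-neuronal markers summed to 11574 to 19871 normalized counts in 3xCR and 16835 to 87811 in GPC6. No pan-neuronal marker was at 0 in any library, whereas Tbr1 and Neurod6 of cortical excitatory neurons and Vip of inhibitory neurons were at 0 in 3xCR replicate 4 and at 0, 0.988 and 1.98 in GPC6 replicate 2. The excitatory neuron scores of these libraries were alike, -3.30 and -3.27.

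**Figure D2:**
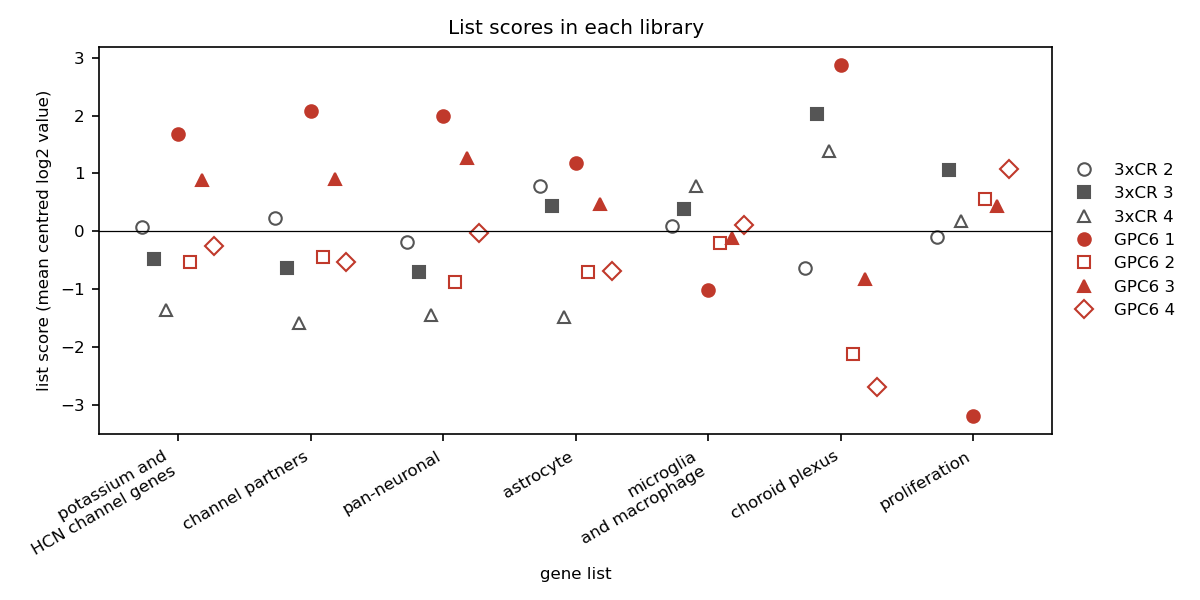
List scores (mean of centred log2 values, vertical axis) in each of the 7 libraries for the channel genes, their partner proteins and 5 marker lists. The channel genes, the partners and the pan-neuronal markers share their extremes, GPC6 replicate 1 at the top and 3xCR replicate 4 at the bottom.

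When the pan-neuronal score entered the fit beside the group, the median log2 fold change of the channel genes was -0.062 in place of 1.07, and 39 of 82 were above 0. In that fit 0 genes of the table passed the adjusted threshold, and 5 channel genes had an unadjusted p under 0.05 (2.18% of all genes did), 1 with a higher value in the GPC6 group, Kcnj16, and 4 with a lower one, Kcnk6, Kcnc4, Kcnj13 and Kcnt2 (Kcnc4 was named after its value was seen). The score was computed from the same 7 libraries and differs between the groups, so that this fit and the group difference share information, and the part of neuronal content in the group difference cannot be told apart from it.

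**Figure D3:**
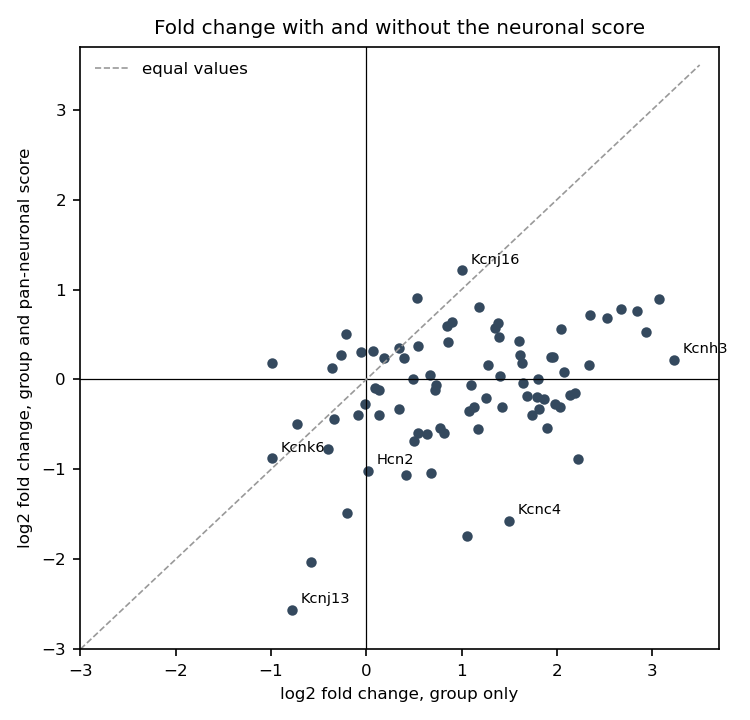
Log2 fold change of each tested channel gene in the fit with the group alone (horizontal axis) and in the fit with the group and the pan-neuronal score (vertical axis). Points lie around 0 on the vertical axis (median -0.062) and mostly to the right of 0 on the horizontal axis (median 1.07).

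Voltage-gated pore subunits formed the largest class, with 27 of 30 tested and 26 of the 27 above 0. Kcnq3, which codes for a subunit of the M-channel, a brake on repetitive firing, stood at 47.7, 41.9 and 12.4 against 266, 62.2, 98.5 and 42.2 (log2 fold change 1.60 ± 0.73, SE). GPC6 replicate 1 was highest and 3xCR replicate 4 lowest, and the groups overlapped through GPC6 replicate 4. Kcnq1, a cardiac and epithelial channel, was the 1 voltage-gated pore gene below 0, with values of 3.09 to 31.0 and a log2 fold change of -0.36 ± 0.79. It overlaps the antisense Kcnq1ot1 (log2 fold change -0.34 ± 0.59), and whether the counting used strand is not stated, so their reads may not be separated.

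Among the Kcnh genes, which code for the ether-a-go-go family of slowly gated channels, all 7 tested were above 0, with a median of 1.96. Kcnh3 stood at 159, 33.5 and 2.76 against 1769.8, 42.5, 553 and 104, and had the highest log2 fold change of all channel genes, 3.23 ± 1.56. Its values spanned the groups, since GPC6 replicates 2 and 4 lay below 3xCR replicate 2, and without 3xCR replicate 4, where it was below the floor of 4.14, the log2 fold change was 1.80. Kcnh3 shares exon sequence with the opposite-strand gene Mcrs1. Kcnh8 differed from its relatives in that GPC6 replicate 2 was its highest library, at 62.2 against 4.12 to 20.1 in the others (log2 fold change 0.53 ± 0.90).

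Kcnb2, a delayed rectifier, was scarce, at 1.38 to 5.58 in 3xCR and 0.988 to 61.8 in GPC6 (log2 fold change 1.79 ± 1.18). The Kcnc genes code for fast channels of rapidly firing neurons, and all 4 had log2 fold changes above 1. Kcnc1 stood at 218, 65.1 and 29.0 against 1212, 60.3, 435 and 181, with GPC6 replicates 2 and 4 below 3xCR replicate 2 (log2 fold change 1.87 ± 1.05). Kcnc2, at 40.6, 30.7 and 12.4 against 590.4, 9.88, 186 and 72.0, was lowest in GPC6 replicate 2 (1.89 ± 1.23).

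Kcna genes code for Shaker-type channels, of which Kcna1 and Kcna2 line axons beside the node of Ranvier. All 6 tested were above 0, with a median of 0.52 that was lower than those of the Kcnb, Kcnc, Kcnh and Kcnq genes. Kcna1 stood at 499.9, 536 and 314 against 2747, 568, 619 and 172, and Kcna2 at 599, 379.5 and 144 against 2213, 729, 680.4 and 464. GPC6 replicate 1 held the top of both, and GPC6 replicate 4 was the lowest library for Kcna1 but not for Kcna2. The log2 fold changes were 0.54 ± 0.81 and 1.40 ± 0.63, and for Kcna1 the value was -0.16 without GPC6 replicate 1. Kcna6 lay between 611 and 1283 over all 7 libraries, with a log2 fold change of 0.34 ± 0.26. Kcna3, a channel of T cells and microglia as well as neurons, stood at 16.4, 18.6 and 42.8 against 34.0, 20.7, 49.7 and 27.8 (log2 fold change 0.40 ± 0.52).

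Kcnd genes code for A-type channels, which delay firing from dendrites. Kcnd3 was nearly level over the GPC6 libraries at 740.4, 740.0, 668 and 649, against 742, 324 and 215 in the 3xCR libraries. The groups overlapped through 3xCR replicate 2 alone (log2 fold change 0.90 ± 0.39), and an antisense transcript, Kcnd3os, overlaps the gene. Kcnd2 stood at 770.1, 366 and 159 against 938, 886, 550.0 and 373 (0.85 ± 0.55), and Kcnd1 lay between 44.2 and 105 with a log2 fold change of 0.093 ± 0.39. Unlike most channel genes, Kcnd2 and Kcnd3 were not low in GPC6 replicate 2.

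**Figure D4:**
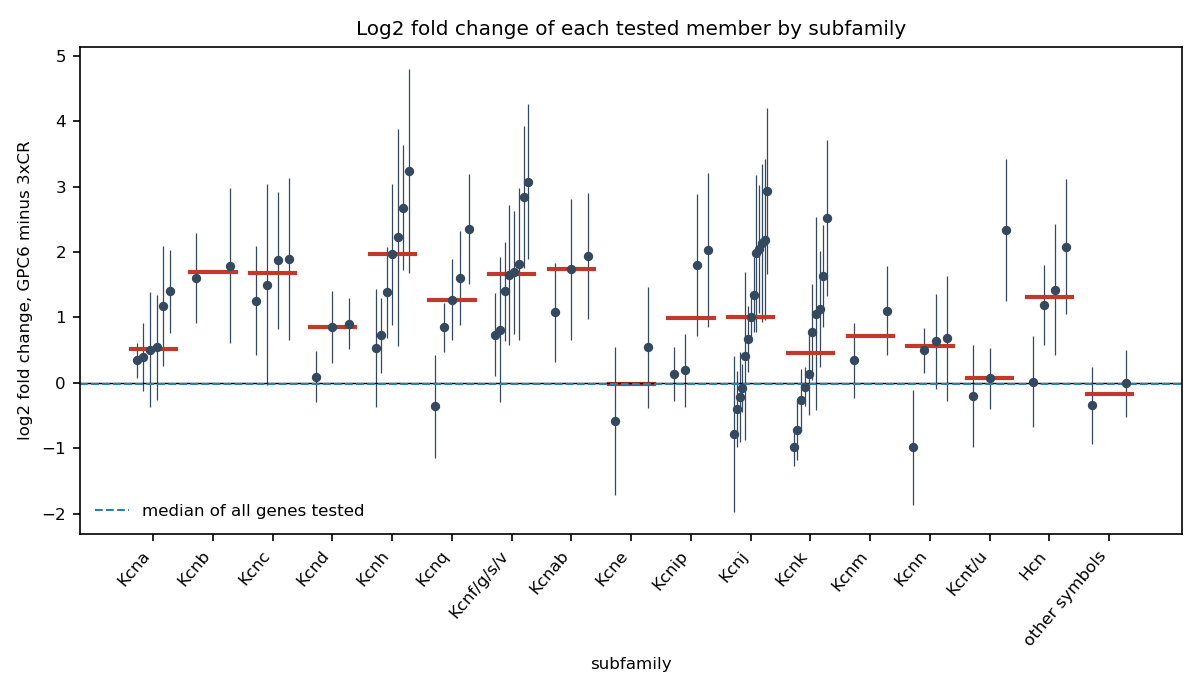
Log2 fold change (GPC6 minus 3xCR, vertical axis) of each tested channel gene by subfamily. Points with bars are estimates ± SE, red lines are subfamily medians and the dashed line is the median of all 14782 tested genes at -0.019. The Kcnh median of 1.96 was the highest and that of the 2 other symbols, -0.18, the lowest.

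The Kcnf, Kcng, Kcns and Kcnv genes code for modifier subunits, which do not conduct alone and change the gating of Kcnb channels. All 8 tested of 10 were above 0 (median 1.67). Kcnv1 stood at 74.0, 16.7 and 2.76 against 444, 37.5, 330.0 and 75.1, which left GPC6 replicate 2 as the only GPC6 library within the 3xCR range. Its log2 fold change was 3.07 ± 1.19 (limma, adjusted p = 0.730), and the value in 3xCR replicate 4 was under the floor there. Leaving that library out gave 1.98, and leaving out 3xCR replicate 2 gave 4.14. Kcnf1 stood at 163, 56.7 and 45.6 against 907, 69.2, 521 and 108 (1.69 ± 0.94). Kcng4 had the smallest value of the class, 0.73 ± 0.63.

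Of the auxiliary genes, the 3 Kcnab genes, which code for cytoplasmic beta subunits, were all above 1. Kcnab2 stood at 733, 539.5 and 709 against 5132, 431, 2052 and 801, where GPC6 replicates 1 and 3 stood above all others and GPC6 replicate 2 was the lowest library. Its log2 fold change was 1.08 ± 0.76, and 0.45 without GPC6 replicate 1. Kcnab3 stood at 143, 83.7 and 20.7 against 1286, 111, 193 and 133 (1.94 ± 0.96) and overlaps an antisense gene. The Kcnip genes code for calcium-binding partners of Kcnd channels and split by library. Kcnip4 followed the common pattern, at 44.4, 21.4 and 8.29 against 510.1, 11.9, 137 and 60.7 (2.03 ± 1.18), whereas Kcnip3 and Kcnip1 were highest in GPC6 replicate 2, at 3479.7 and 632. The log2 fold changes of these were 0.19 ± 0.56 and 0.13 ± 0.41. The Kcne genes code for single-pass subunits of Kcnq and other channels, and the 2 tested went with different libraries. Kcne1l, at 429, 446 and 58.0 against 131, 23.7, 519.8 and 298, was lowest in GPC6 replicate 2 (-0.58 ± 1.13), and Kcne4, at 19.3 to 117 in the 3xCR libraries, was highest in GPC6 replicate 4 at 279.8 (0.54 ± 0.93).

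Inward rectifiers comprised neuronal genes and genes of glia, vessels and epithelia. Per kilobase of exon, Kcnj10 had the highest level of all channel genes, 937 normalized counts. Without correction for length, its mean was 21.6% of the summed mean normalized count of the tested channel genes. It stood at 7239, 6359 and 2742 against 5308, 5042, 5101 and 3683. The 3xCR libraries spanned the whole range of the GPC6 libraries, with a log2 fold change of -0.083 ± 0.36. The astrocyte markers as a list had scores of 0.78, 0.44 and -1.48 against 1.18, -0.70, 0.47 and -0.68, lowest in 3xCR replicate 4 as was Kcnj10, and 6 of 9 were above 0. Kcnj9, the neighbor of Kcnj10 on chromosome 1 at a distance of 11.9 kb, codes for a G protein-gated subunit of neurons. It was named after its value was seen, and its log2 fold change was 2.14 ± 1.21.

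Kcnj4, a strong rectifier of forebrain neurons, stood at 169, 60.5 and 8.29 against 1624, 106, 787 and 111. GPC6 replicates 1 and 3 stood above all others, and replicates 2 and 4 lay within the 3xCR range (log2 fold change 2.94 ± 1.27, limma, adjusted p = 0.730). Kcnj16, which codes for Kir5.1, the partner of Kir4.1 in glia, stood at 299, 167 and 148 against 297, 667, 388 and 309.7. The groups overlapped by a single pair of nearly equal libraries, 3xCR replicate 2 and GPC6 replicate 1, and GPC6 replicate 2 was the highest, unlike for most channel genes. Its log2 fold change was 1.01 ± 0.38 (limma, adjusted p = 0.730), and 1.22 with the pan-neuronal score in the fit. The gene Kcnj2 lies 38.2 kb from Kcnj16 on chromosome 11.

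Kcnj8, an ATP-sensitive channel subunit of pericytes, lay between 20.1 and 109 with no order by group (-0.22 ± 0.69). Kcnj13, a channel of choroid plexus epithelium, was high in 2 libraries, 3xCR replicate 3 at 44.6 and GPC6 replicate 1 at 58.7, and at 1.98 to 10.4 in the other 5 (-0.78 ± 1.19). The choroid plexus transcript Ttr was likewise highest in these 2 libraries, at 3240 and 11813, and at 10.9 to 1840 in the other 5. Kcne2, also of choroid plexus and too low to be tested, had its highest values in the same 2, 31.6 and 23.2, against at most 4.14. The choroid plexus list score, however, was high in 3xCR replicate 4 as well. It was 1.39 there, against 2.02 in 3xCR replicate 3, 2.88 in GPC6 replicate 1 and at most -0.64 in the others. Ttr was at 1840 in 3xCR replicate 4, and Aqp1 of the same list was highest there, at 1689, whereas Kcnj13 was not high. All 7 choroid plexus markers had log2 fold changes below 0. On the linear scale, however, the group mean was higher in GPC6 for Ttr, Kl, Clic6 and Otx2 and lower for Folr1, Prlr and Aqp1. The part of these markers in the Kcnj13 result was not tested. Exons of Kcnj13 overlap Gigyf2 on the opposite strand.

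Leak channels had the lowest median of the pore classes, 0.45 over 10 tested genes, with 6 above 0. Kcnk6, a leak channel studied mainly outside neurons, was the 1 channel gene whose groups did not overlap. It stood at 179, 223 and 348 against 116, 109, 132 and 129. Every GPC6 library lay below every 3xCR library, and the GPC6 libraries were close together at 121 ± 11.0 (SD, n = 4) against 250.0 ± 87.8 (SD, n = 3). Its log2 fold change was -0.98 ± 0.29 (limma, adjusted p = 0.730), with a range of -1.20 to -0.72 when each library was left out in turn and -0.88 with the pan-neuronal score in the fit. The share of channel genes that lay lower without overlap, 1 of 82, was below that of all genes, and the gene was named for this separation.

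Beside Kcnk6, all 10 microglia and macrophage markers had log2 fold changes below 0 (median -0.74), 4 of them with groups that did not overlap (3.52% of all genes lay lower in this sense). The markers summed to between 12215 and 19575 in 3xCR and between 6996 and 12195 in GPC6, none was at 0, and their part in the Kcnk6 difference was not tested. Kcnk13, a potassium channel of microglia, did not share that pattern, at 163, 180.5 and 250.0 against 161, 276, 166 and 165. GPC6 replicate 2 was its highest library and the groups overlapped (-0.059 ± 0.30). Kcnk2, a mechanosensitive channel of neurons and astrocytes, lay between 148 and 959.8 with overlapping groups (0.14 ± 0.62). The scarce Kcnk9 stood at 6.03, 0 and 1.38 against 41.7, 1.98, 39.0 and 8.23, and had the highest log2 fold change of the leak channels, 2.52 ± 1.19. Since 2 of its 3xCR values and 1 of its GPC6 values were at or below the floor, that number depends on the pseudocount.

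The class of calcium- and sodium-activated channels had a median of 0.49 over 9 tested genes. It was formed by symbol (Kcnm, Kcnn, Kcnt and Kcnu) and so includes the beta subunit gene Kcnmb4. Kcnt1, a sodium-activated channel, stood at 125, 54.0 and 15.2 against 964, 44.5, 455 and 175, with GPC6 replicate 2 below 2 of the 3xCR libraries (2.34 ± 1.09). Its relative Kcnt2 stood at 30.1, 26.0 and 27.6 against 74.2, 5.93, 32.8 and 21.6, and the GPC6 libraries lay on both sides of the 3xCR libraries (-0.20 ± 0.77). Kcnma1, the large-conductance channel gated by calcium and voltage, stood at 167, 79.1 and 67.7 against 544, 135, 321 and 79.2 (1.10 ± 0.68), and its neuronal beta subunit gene Kcnmb4 had a log2 fold change of 0.34 ± 0.58. Of the small-conductance channels, Kcnn1 varied from 87.0 to 216 (0.49 ± 0.34) and Kcnn2 from 16.6 to 352 (0.68 ± 0.96).

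Kcnn4 codes for the intermediate-conductance channel of lymphocytes and activated microglia and had its own pattern. It stood at 27.4, 40.9 and 289 against 13.9, 39.5, 33.7 and 74.1. A single library, 3xCR replicate 4, carried the group difference, since the log2 fold change was -0.99 ± 0.88 with it and 0.038 without it. In that library the T and B cell score was 2.40, against at most 0.031 in the other 6, and the B cell marker Cd79a was at 1858 against 27.9 to 107. All 7 markers of the list had log2 fold changes below 0 (median -1.22), none was at 0, and their part in the Kcnn4 value was not tested.

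**Figure D5:**
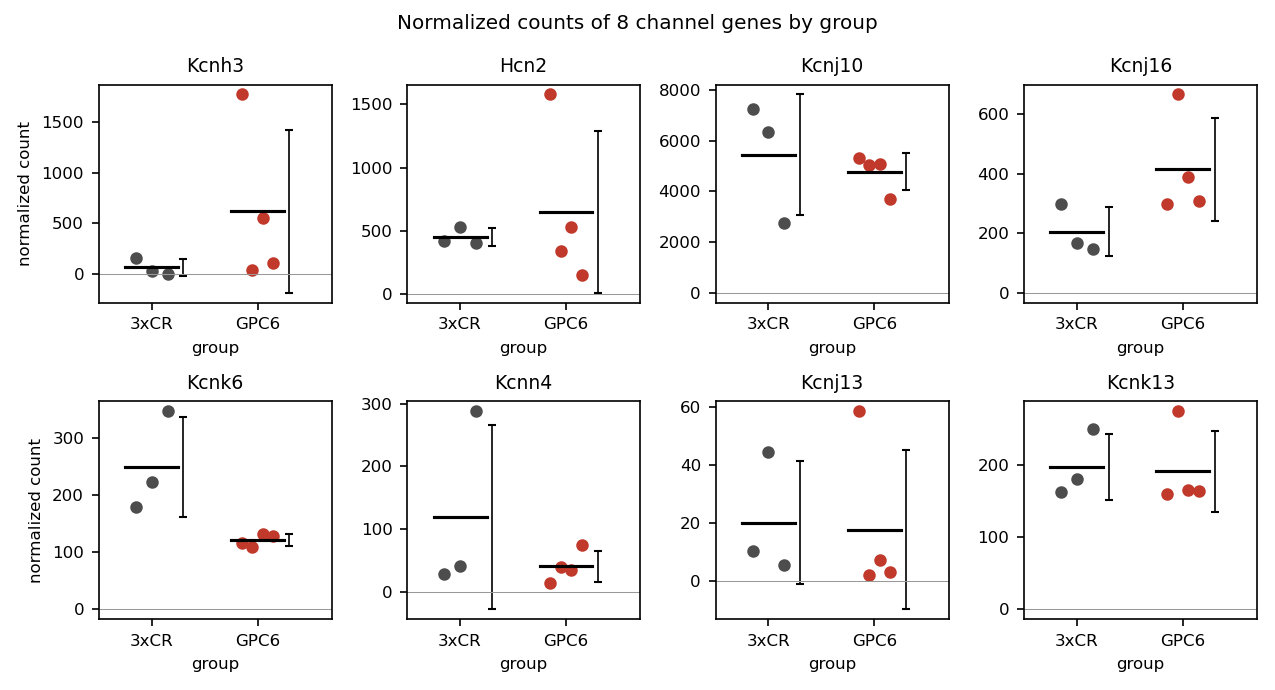
Normalized counts of 8 channel genes by group (points, 1 per library). Horizontal lines are group means and bars are ± SD (n = 3 and n = 4), with vertical axes scaled per gene. Kcnh3 and Hcn2 spread widely in the GPC6 group, Kcnk6 was lower in every GPC6 library, and Kcnn4 was high in 1 library of the 3xCR group.

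All 4 HCN genes were tested and all 4 were above 0, with a median of 1.31 and 3 of them above 1. With the pan-neuronal score in the fit, the median was -0.11. Hcn2, with the highest level of the 4 per kilobase of exon (176 normalized counts), stood at 418, 533 and 401 against 1579.7, 341, 527 and 148. Apart from GPC6 replicate 1, the GPC6 libraries lay within or below the 3xCR range, and the log2 fold change of 0.020 ± 0.70 became -0.58 without that library.

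Genes of other names whose proteins bind or anchor these channels were listed as partners, among them Dpp6 and Dpp10 (partners of Kcnd channels), Lgi1 and Adam22 (a synaptic complex with Kcna channels), Amigo1 (a partner of Kcnb channels) and Ank3 (the anchor of Kcnq channels at the axon initial segment). All 16 tested of 19 had log2 fold changes above 0, with a median of 1.14, and 3 had an unadjusted limma p under 0.05 with higher values in the GPC6 group (2.74% of all genes did). None passed the adjusted threshold. The partner score was 0.24, -0.65 and -1.59 against 2.08, -0.45, 0.91 and -0.54. GPC6 replicates 1 and 3 were the 2 highest libraries here as well, and with the pan-neuronal score in the fit the median was 0.0025 and 8 of 16 were above 0.

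The counts above moved with single libraries. Without GPC6 replicate 2, the library near the 3xCR level of Gpc6, 27 channel genes with higher values in the GPC6 group and 1 with lower values had an unadjusted limma p under 0.05 (9.46% of all genes were called). The groups then did not overlap for 21 higher and 1 lower (16.1% of all genes). Without GPC6 replicate 1, the median log2 fold change of the channel genes was 0.65, 63 of 82 were above 0, and 4 had an unadjusted p under 0.05 (3.17% of all genes). Without both, the median was 0.83, 16 had an unadjusted p under 0.05 (6.1% of all genes) and 26 had groups without overlap (23.6% of all genes).

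Single genes also moved with these libraries. Without GPC6 replicate 1, the log2 fold changes were 1.16 for Kcnc1, 1.02 for Kcnc2, 1.05 for Kcnb2, 1.06 for Kcnf1, 1.18 for Kcnip4, 1.15 for Kcnab3, 1.67 for Kcnt1 and 0.64 for Kcnma1, each below the value over all 7 libraries. Without GPC6 replicate 2 they were 2.60, 2.95, 2.71, 2.29, 2.95, 2.33, 3.14 and 1.31 in the same order, each above it. Kcnj4 and Kcnh3 had 2.20 and 2.31 without GPC6 replicate 1 and 3.51 and 4.09 without GPC6 replicate 2. These genes are some of the 43 named by rule, and they were selected after their values were seen.

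Leaving out 3xCR replicate 2 gave 21 channel genes at an unadjusted p under 0.05 (7.67% of all genes) and 29 without overlap (20.9%). Leaving out 3xCR replicate 3 gave 3 (2.55%) and 2 (10.9%), and 3xCR replicate 4 gave 1 (0.819%) and 3 (7.92%). In the GPC6 group, the number without overlap was 2 without replicate 1 (9.03%), 1 without replicate 3 (9.14%) and 10 without replicate 4 (14.4%), and the number at an unadjusted p under 0.05 was 1 without replicate 3 (2.6%) and 13 without replicate 4 (7.84%). In each of these fits 0 channel genes passed the adjusted threshold. With weights per library, which give less weight to libraries far from their group, 33 channel genes had an adjusted p under 0.05 (13.3% of all genes) and 53 an unadjusted one (34.5%), whereas limma voom gave 0 and 3 (3.38%). A fit with the replicate number as a block gave 0 and 7 (4.59% of all genes). Without the filter on low values, 2 of the 99 genes had groups without overlap (5.62% of all genes with a read), Kcnk6 and the barely detected Kcna7, at or below the floor in every library.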

How the data were processed

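RNA of 7 tumors was sequenced with a stranded mRNA kit. The authors aligned reads to mm10 with STAR 2.5.0a, counted them per gene and divided the counts by DESeq2 1.20.0 size factors. The deposited values are this normalized signal, in normalized counts, on a linear scale and without a correction for gene length. The rule for reads that fit several genes and the use of strand in counting are not given in the sources used here. Of 19282 entries, 25 had names turned into dates and were left out (0.254% to 0.361% of reads). All values (100%) were whole multiples of 1 read within 0.01 read, which gave back the reads (7197692 to 18879762 per library).

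Groups came from the sample titles. Nothing in the labels states that libraries came from separate animals, but the paper describes each library as 1 brain. The test was limma 3.58.1 (R 4.3.3) on log2(normalized count + 1), for 14782 genes whose mean was at least 10, with a variance trend, two-sided, with Benjamini-Hochberg adjustment. On recovered reads, edgeR 4.0.16, DESeq2 1.42.0 and voom were alternatives, among 21 in all. Tests were checked on simulated counts with a single fixed dispersion. The simulation held no outlying library, so the check gives no error rate for these data. The channel genes and the gene lists were chosen with earlier results of these data known. Genes were named by rule: per subfamily the highest mean, the highest log2 fold change and the lowest, all without overlap between groups, and a fixed set of glial, immune and epilepsy-linked genes. Some genes and sequences are not reported here, and counts and medians include them. Gene positions came from the GENCODE annotation of GRCm38, the assembly that mm10 denotes, and all 99 symbols matched. Errors of log2 fold changes are standard errors.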

Additional observations from a re-analysis of the deposited data

Results flagged for a closer look

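In the GPC6 group, 1 library stood far from the other 3 for 3 of the 43 named genes, where about 2.15 are expected by chance at a rate of 1 in 20. Kcnd1 was low in GPC6 replicate 4, at 44.2 normalized counts against 95.8 to 105 in the other 3. Kcnj10 was low in the same library, at 3683 against 5042 to 5308. Kcnk13 was high in GPC6 replicate 2, at 276 against 161 to 166. The group of 3 libraries was not examined in this way.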

How the results depend on the processing

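The 21 alternatives were all run. The median log2 fold change of the channel genes was 0.65 to 1.42 when each library was left out in turn (lowest without GPC6 replicate 1, highest without 3xCR replicate 2), and -0.062, a change of sign, with the pan-neuronal score as covariate. The number of channel genes at an unadjusted p under 0.05, 10 in limma, was 1 to 28 over the leave-one-out fits, 38 by DESeq2, 3 by voom, 53 with weights per library, 16 without GPC6 replicates 1 and 2, and 5 with the covariate. Weights per library called 33 of the 82 at an adjusted p under 0.05, and each other alternative called 0. The number without overlap was 1 to 29 over the leave-one-out fits, 26 without GPC6 replicates 1 and 2, and 2 without a filter and over the genes of DESeq2. The cause of these shifts was not tested. No pairing by replicate number was seen in the deviations of libraries from their group means. Same-numbered libraries correlated at -0.194, 0.118 and 0.296 across genes, and libraries of different number at -0.465 to 0.504. Whether same-numbered libraries were handled together is not given by the labels and was not tested. The fit with a replicate block, which drops GPC6 replicate 1, gave a median of 0.65 and 7 genes at an unadjusted p under 0.05 (4.59% of all genes).

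The log2 fold changes of some single genes turned sign. With the pan-neuronal score as covariate the values that turned were Hcn2 -1.01, Kcna1 -0.60, Kcnab2 -0.35, Kcnb2 -0.20, Kcnc1 -0.22, Kcnc2 -0.54, Kcnd1 -0.091, Kcnf1 -0.18, Kcng4 -0.061, Kcnip1 -0.12, Kcnip4 -0.31, Kcnj8 0.50, Kcnk13 0.30, Kcnk2 -0.39, Kcnma1 -0.063, Kcnmb4 -0.33, Kcnn2 -1.04, Kcnn4 0.19 and Kcnq1 0.13. Without GPC6 replicates 1 and 2 they were Hcn2 -0.67, Kcna1 -0.42, Kcnd1 -0.24, Kcne1l 0.81, Kcnh8 -0.56, Kcnip1 -0.37, Kcnip3 -0.20, Kcnk2 -0.72, Kcnmb4 -0.22, Kcnq1 0.17 and Kcnq1ot1 0.052. Under the replicate block they were Hcn2 -0.58, Kcna1 -0.16, Kcnd1 -0.023, Kcnip1 -0.022, Kcnj8 0.14, Kcnk13 0.012, Kcnk2 -0.27, Kcnmb4 -0.015 and Kcnq1 0.16, and with weights per library Hcn2 -0.072, Kcnj8 0.45, Kcnmb4os2 0.26, Kcnq1 0.32 and Kcnt2 0.12. DESeq2 gave Kcnj8 0.10, Kcnq1 0.0034 and Kcnt2 0.25, edgeR Kcnj8 0.081 and Kcnt2 0.24, voom Hcn2 -0.060, scaling to an equal total Kcnmb4os2 0.034 and to an equal upper quartile Hcn2 -0.025. Genes that turned in a leave-one-out fit ranged over these fits as Hcn2 -0.58 to 0.56, Kcna1 -0.16 to 1.17, Kcnd1 -0.023 to 0.39, Kcne1l -1.54 to 0.29, Kcne4 -0.28 to 1.03, Kcnh8 -0.095 to 1.11, Kcnip1 -0.13 to 0.45, Kcnip3 -0.22 to 0.70, Kcnj10 -0.52 to 0.18, Kcnj13 -1.70 to 0.021, Kcnj8 -0.66 to 0.14, Kcnk13 -0.25 to 0.12, Kcnk2 -0.27 to 0.63, Kcnmb4 -0.015 to 0.79, Kcnmb4os2 -0.20 to 0.22, Kcnn2 -0.17 to 1.47, Kcnn4 -1.64 to 0.038, Kcnq1 -0.83 to 0.16, Kcnq1ot1 -0.71 to 0.031 and Kcnt2 -0.73 to 0.42. Depth limits the genes near the floor of 1.64 to 4.64 normalized counts.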
